A study of Mus musculus with 36 samples.

Results

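In wild-type nephron progenitor cells (NPCs), 44 genes were expressed most highly at the intermediate of 3 doses of CHIR99021 (CHIR) and were at least 2 times lower both without CHIR and at a higher dose. CHIR inhibits glycogen synthase kinase and so stabilizes β-catenin. The genes were chosen from the 9 wild-type libraries: the mean in low CHIR (1.25 µM, 3 libraries) had to be at least 50 normalized counts and at least 2 times the mean in no CHIR (3 libraries) and in high CHIR (5 µM, 3 libraries), and each low CHIR library had to lie above all 6 others. Of 25760 genes listed, 12831 reached the mean of 50, 729 of these had every low CHIR library above the rest, and 44 (0.343% of the 12831) also reached the ratio of 2. The wild-type values therefore chose the genes and are given as a description, with no test. A normalized count is the number of reads on a gene divided by 1 size factor for the library.

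The NPCs were primary cells from E16.5 mouse kidneys, enriched by magnetic depletion of other cell types and cultured in nephron progenitor expansion medium (NPEM). The genes were then followed in 2 sets of cultures whose libraries had no part in the choice. In the β-catenin set, with 2 libraries per group, NPCs constitutively expressing Cas9 and GFP received a guide RNA to GFP (control) or to *Ctnnb1*, the gene of β-catenin. NPCs homozygous for a conditional β-catenin allele were left without Cre (control) or received Cre mRNA. All of these spent a 24 h knockout period in low CHIR followed by low or high CHIR, and mCherry mRNA was introduced with the guide or Cre so that reporter-positive cells could be sequenced. In the Tcf/Lef set, Cas9-GFP NPCs received the GFP guide (3 libraries in low and 3 in high CHIR) or guides to *Tcf7*, *Tcf7l1*, *Tcf7l2* and *Lef1* together (the quadruple knockout, QKO, with 2 libraries in low and 3 in high CHIR), with a knockout period of 48 h. Neither set held a culture without CHIR, so the peak itself could not be examined again there, only its step from low to high CHIR and its dependence on β-catenin or Tcf/Lef factors. The cells were transfected populations in which the removal need not be complete, and bulk RNA cannot tell fewer cells of a type from less RNA per cell. By staining, the study reports a partial loss of membrane β-catenin protein with both the *Ctnnb1* guide and Cre.

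NPCs are the *Six2*-positive cap mesenchyme cells from which every epithelial cell of the nephron derives, and they must both renew themselves and differentiate. Canonical Wnt signaling serves both: a modest β-catenin signal goes with expansion of the progenitors, and a strong one starts the inductive program of *Wnt4*, *Lef1* and *Jag1*. In the nucleus β-catenin works through 4 DNA-binding partners, *Tcf7*, *Tcf7l1*, *Tcf7l2* and *Lef1*. A gene that is highest at an intermediate dose rises with 1 step of the signal and falls with the next.

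The libraries held 13089780 to 76071568 reads on genes, the deepest being no CHIR replicate 1, and 1 read was worth 0.255 to 1.46 normalized counts, so that low values rest on few reads. Groups held 2 or 3 libraries. The NPC marker *Six2* was at 2716 to 3545 normalized counts in no and low CHIR and at 60.5 to 79.6 in high CHIR, while *Wnt4* rose from 19.9 to 188 in the former 6 libraries to 1315 to 11108 in high CHIR. Listed markers of other cell types were present in the wild-type libraries, and several moved with the dose. The 20 stroma markers summed to 23426 to 58873 in no and low CHIR and to 11249 to 24723 in high CHIR, the 16 muscle markers to 9345 to 19373 and to 1043 to 1361, the 14 blood and macrophage markers to 875 to 1517 and to 311 to 446, the 13 ureteric markers to 4322 to 5967 and to 6680 to 14481, the 15 podocyte and tubule markers to 685 to 1646 and to 1117 to 2360, and the 16 endothelial markers to 3102 to 4659 and to 2568 to 3148. Among defining markers, *Cdh5* (endothelium) was at 0 to 15.8, *Ptprc* (blood) at 0 to 23.7, *Ret* (ureteric epithelium) at 0 to 7.32, *Nphs1* (podocytes) at 39.8 to 93.7 and *Epcam* (epithelium) at 92.02 to 199 in no and low CHIR and 322 to 873 in high CHIR. The part of these in the results was not tested. In each of the wild-type and Tcf/Lef sets 1 library stood apart. In the latter it was the 48 h GFP guide control replicate 1 in high CHIR, where the 15 blood and macrophage markers listed summed to 3552, against 43.4 to 227 in the other 10 libraries. In the former it was high CHIR replicate 3. High CHIR replicate 3 had the highest *Wnt4* (11108 against 1315 and 1473) and the lowest sum of 54 G2-M genes (61833 against 150123 and 156507). Without it 33 of the 44 genes met the rule and 11 did not, their ratios then lying between 1.55 and 1.90, although every low CHIR library stayed above the rest for all of them. In 13 of the 44 genes this library was below 50% of the lower of the other 2 high CHIR libraries. The removal of *Ctnnb1* transcript could be read only in part: with the *Ctnnb1* guide it was 1040 to 1652 normalized counts in low CHIR against 2521 to 3397 in controls, whereas with Cre it was 2451 to 3085 against 3097 to 3880 in low CHIR and 2254 to 2583 against 2207 to 2423 in high CHIR, and reads outside the deleted exons are still counted.

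By group means, the peak was steeper toward high than toward no CHIR in more of the genes. The median ratio of low to no CHIR was 2.69 and that of low to high CHIR 3.25, and 27 genes were higher in no than in high CHIR against 17 with the opposite order. In most the libraries overlapped: 8 had every no CHIR library above every high CHIR library, and 1 had the reverse. In 29 genes the ratio of low CHIR to the next highest group was between 2 and 3, in 7 between 3 and 4, and in 8 at least 4. Just inside the limit were *1700066M21Rik* and *Epb41* (2.02 each) and *Sfrp2* (2.04), and just outside, meeting every other condition, were *Amph* (1.999), *Atad2* (1.99) and *E2f8* (1.98). The mean in low CHIR ranged from 60.3 to 8525 normalized counts with a median of 356. The opposite pattern, with every low CHIR library below the rest, a low CHIR mean at most 50% of either neighbor and a mean of at least 50 in 1 of these, was met by 70 genes.

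**Figure D1:**
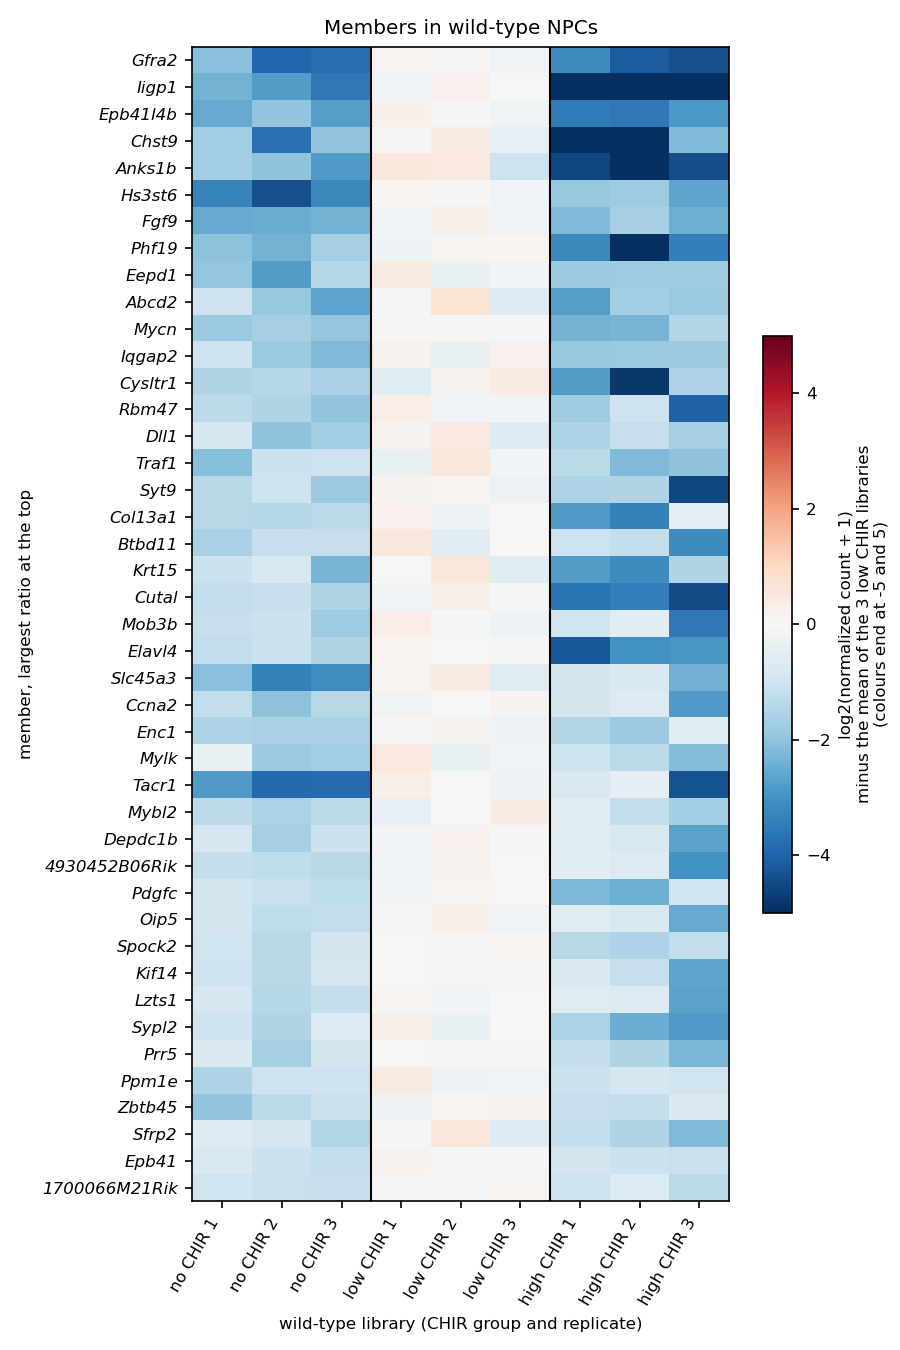
Each row is 1 of 43 of the genes and each column 1 of the 9 wild-type libraries; the color gives log2(normalized count + 1) minus the gene's mean over the 3 low CHIR libraries, and colors end at -5 and 5. The 3 low CHIR columns are the highest in every row, as the rule requires, and high CHIR replicate 3 has the lowest high CHIR value in 25 genes.

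**Figure D2:**
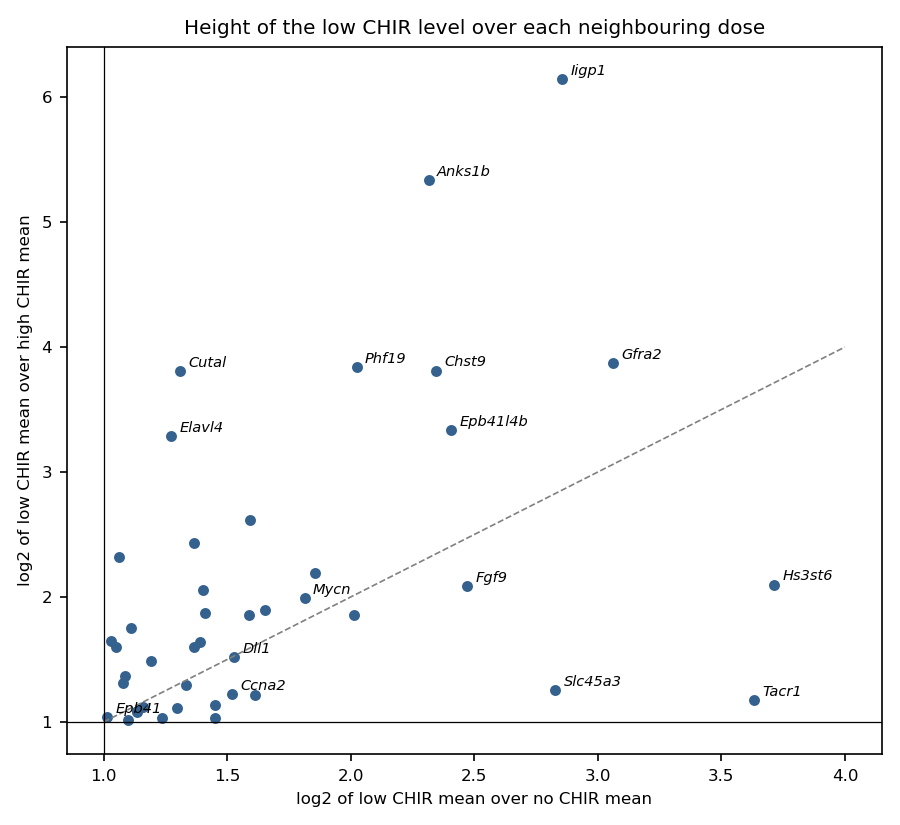
Each point is 1 of 43 of the genes; the horizontal axis is the log2 ratio of the low to the no CHIR mean and the vertical axis that of the low to the high CHIR mean. *Hs3st6* lies farthest to the right (13.1 times) and *Iigp1* highest (70.7 times), and genes above the diagonal were higher in no than in high CHIR.

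Genes for signals and their receptors made up 8 of the 44. *Gfra2*, the receptor for neurturin, had the highest ratio of all, 8.36, with normalized counts of 72.6, 19.03 and 21.2 in no CHIR, 344, 324 and 275 in low CHIR and 33.6, 16.8 and 14.0 in high CHIR. *Fgf9*, a ligand that supports NPC maintenance in the embryonic kidney, was at 459.8, 483 and 515 in no CHIR, at 2411, 3281 and 2389 in low CHIR and at 584, 839 and 483 in high CHIR, so that it peaked by 4.24 times over the high CHIR mean. Both were low at either end of the dose range. The platelet-derived growth factor ligand *Pdgfc* was at 1834, 1616 and 1435 in no CHIR, 3202, 3864 and 3478 in low CHIR and 731, 638 and 1761 in high CHIR, where replicate 3 reached the no CHIR range. The Notch ligand *Dll1* was at 181, 82.0 and 99.4, then 377, 461 and 206, then 111, 149 and 105, and its lowest low CHIR library was close to its highest no CHIR library. *Sfrp2* encodes a secreted modulator of Wnt signaling. Its values were 167, 143 and 93.8 in no CHIR, 272, 385 and 168 in low CHIR and 114, 92.1 and 56.1 in high CHIR, so low CHIR replicate 3 lay next to no CHIR replicate 1. The substance P receptor gene *Tacr1* showed how much 1 library could decide: it was at 4.39 to 10.2 in no CHIR, 64.7 to 95.9 in low CHIR and 44.8, 57.2 and 2.80 in high CHIR, and without high CHIR replicate 3 its ratio was 1.55. The leukotriene receptor gene *Cysltr1* (ratio 3.01) and the TNF receptor adaptor gene *Traf1* (2.66) completed this group.

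Regulators of transcription and RNA were 5 of the 44. *Mycn*, a MYC-family factor that promotes growth and division and is expressed in nephron progenitors, was at 565, 656 and 544 normalized counts in no CHIR, 2137, 2127 and 1940.2 in low CHIR and 398, 412 and 754 in high CHIR. Its low CHIR libraries were tightly grouped and 3.52 times above the no CHIR mean. *Phf19*, a Polycomb-like partner of the PRC2 histone methyltransferase, was at 89.7, 71.7 and 118, then 313, 418 and 407, then 39.2, 5.58 and 34.6 in no, low and high CHIR. *Elavl4*, an RNA-binding protein best known from neurons, was at 555, 624 and 459, then 1392, 1325 and 1238, then 68.3, 162 and 176. For both, high CHIR lay below no CHIR without overlap. The RNA-binding protein gene *Rbm47* (ratio 3.005) and the zinc finger gene *Zbtb45* (2.05) were the others.

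Genes of the membrane and of vesicles (5), of the cytoskeleton and matrix (8) and of sulfation (2) followed. *Slc45a3*, a solute carrier, was higher in high than in no CHIR on average, with 166, 67.3 and 82.7 in no CHIR, 784, 984 and 473 in low CHIR and 379.8, 426 and 133 in high CHIR. *Syt9*, a synaptotagmin that senses calcium in vesicle release, was at 151, 192 and 114, then 455, 428 and 326, then 134, 139.6 and 15.9 in no, low and high CHIR. *Iqgap2*, a scaffold of the actin cytoskeleton, was at 196, 111 and 88.2, then 456, 312 and 477, then 108, 113 and 114. *Enc1*, an actin-associated protein of the kelch family, had the highest normalized counts of the 44, with 2892, 2744 and 2723 in no CHIR, 8909, 9581 and 7085 in low CHIR and 3067, 2376 and 5569 in high CHIR. Its high CHIR replicate 3 came nearer to low CHIR than any other library outside the group did. Both sulfotransferase genes had ratios over 4: *Hs3st6*, which modifies heparan sulfate, was at 4.39 to 11.2 in no CHIR, 99.4 to 118 in low CHIR and 16.8 to 32.1 in high CHIR, and *Chst9* was at 5.85 to 26.5, 67.1 to 118 and 0 to 18.7. The FERM-domain gene *Epb41l4b* had the third highest ratio of the 44 (5.30).

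*Anks1b*, an ankyrin-repeat protein best known from synapses, had the fifth highest ratio (4.98), with 30.6, 24.9 and 13.4 normalized counts in no CHIR, 148, 145 and 49.1 in low CHIR and 3.36, 1.40 and 3.74 in high CHIR. Its low CHIR replicate 3 was far below the other low CHIR libraries but above all the rest. *Eepd1*, with an endonuclease and phosphatase-like domain, was at 29.8, 16.1 and 43.6, then 159, 94.0 and 108, then 32.5, 33.5 and 33.6, and *Abcd2*, a peroxisomal transporter of fatty acids, at 43.1, 23.4 and 13.4, then 86.7, 146 and 56.3, then 12.3, 26.5 and 24.3 (ratio 3.62 each). *Prr5*, a component of the mTORC2 kinase complex, had the ninth highest level of the 44, with 775, 413 and 688 in no CHIR, 1309, 1219 and 1351 in low CHIR and 559, 458 and 261 in high CHIR. *Mylk*, the myosin light chain kinase gene (2.28), *Ppm1e*, a protein phosphatase gene (2.05), the synaptophysin-like gene *Sypl2* (2.09) and *4930452B06Rik* (2.16) had ratios nearer to the limit, and that of *4930452B06Rik* was 1.57 without high CHIR replicate 3.

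*Iigp1*, an interferon-inducible GTPase, fell most from low to high CHIR. It was at 80.3, 60.01 and 34.6 in no CHIR, 361, 489.9 and 414 in low CHIR and 6.72, 8.38 and 2.80 in high CHIR. A list of interferon-response genes, of which 31 were listed in the wild-type table, does not include *Iigp1* and held none that met the rule. Of its 7 genes with a low CHIR mean of at least 50, 0 had every low CHIR library above the rest. The highest ratio of the low CHIR mean to the next group among these 7 was 1.90, that of *Ifit2*. The summed level of the list was 2477, 2512 and 2398 in no CHIR, 1854, 1738 and 1775 in low CHIR and 2519, 1568 and 2427 in high CHIR, so the list did not peak in low CHIR.

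The cell division genes were 5 of the 44 and had some of the lowest ratios, from 2.11 to 2.33. *Ccna2*, the S phase and mitotic cyclin A2, was at 862, 490.3 and 765 normalized counts in no CHIR, 1804, 2014 and 2256 in low CHIR and 1073, 1251 and 282 in high CHIR. *Mybl2*, a transcription factor of cell cycle genes, was at 142, 119 and 139, then 264, 364 and 463, then 236, 151 and 108. The mitotic kinesin gene *Kif14* (2.11), the centromere gene *Oip5* (2.13) and *Depdc1b* (2.18) were similar in size, and in all 5 the lowest of the high CHIR libraries was replicate 3. Without that replicate none of the 5 met the rule, their ratios falling to between 1.61 and 1.90. The pattern at a smaller size was widespread among cell cycle genes. Of 43 S phase genes 25 (58.1%) and of 54 G2-M genes 34 (63.0%) had every low CHIR library above all 6 others. Among all 12831 genes with a low CHIR mean of at least 50 it was 729. The median ratios of the lists were 1.44 and 1.49, but 0 of their genes reached the ratio of 2, the nearest being *Atad2* at 1.99 and *Kif11* at 1.93. These ratios include high CHIR replicate 3, which had the lowest G2-M sum, and were not taken again without it. The summed G2-M genes were at 116952 to 129413 in no CHIR, 173663 to 201999 in low CHIR and 61833, 150123 and 156507 in high CHIR. The human lists behind these counts, written with mouse symbols, do not hold the 5 genes.

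The other lists are read against the 0.343% of all genes that met the rule. Of 18 early nephron differentiation genes with a low CHIR mean of at least 50, *Dll1* and *Sfrp2* met the rule, and *Sfrp2* was also the only 1 of 16 Wnt feedback targets. The lists of NPC self-renewal, p53, cholesterol, hypoxia, AP-1, Fgf, Bmp, stress response and other cell type genes held none. Of 9 neuronal and synaptic genes, *Elavl4* and *Syt9* met it. Of 19 genes that the study named as dependent on β-catenin in low CHIR, *Btbd11*, *Gfra2*, *Elavl4*, *Mycn* and *Syt9* did, but that list was chosen on libraries used here and is not independent evidence.

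Of the 44 genes, 3 lay side by side on chromosome 2 and no other member had another within 1000 kb, the next nearest pair being 1349 kb apart. All 44 were protein coding, as were 84.7% of the 12824 genes with a low CHIR mean of at least 50 and a known place, and their median span was 44.1 kb against 19.1 kb for the latter. In the GENCODE vM21 annotation of GRCm38, *Cutal* (ENSMUSG00000026870) runs on the plus strand at chr2:34874396-34892132, *Phf19* (ENSMUSG00000026873) on the minus strand at chr2:34893757-34914026 and *Traf1* (ENSMUSG00000026875) on the minus strand at chr2:34941750-34961772, 87.4 kb in all. *Cutal* encodes a protein related to the copper tolerance family, *Phf19* a PRC2 partner and *Traf1* a signaling adaptor. Their promoters, 250 bases before and 50 after the start as given by RefSeq for GRCm38.p6, are shown because the 3 genes lie side by side. The next 2 are those of *Mycn* and *Syt9*, 2 of the 3 genes called lower in high CHIR after either way of removing β-catenin, as described further on. The promoter of *Elavl4*, the other of these, is not shown. Each is read 5′ to 3′ on the gene's strand, and capitals mark the Tcf/Lef core CTTTGA on either strand (TCAAAG when reversed).
Cutal, chr2:34874146-34874445, plus strand: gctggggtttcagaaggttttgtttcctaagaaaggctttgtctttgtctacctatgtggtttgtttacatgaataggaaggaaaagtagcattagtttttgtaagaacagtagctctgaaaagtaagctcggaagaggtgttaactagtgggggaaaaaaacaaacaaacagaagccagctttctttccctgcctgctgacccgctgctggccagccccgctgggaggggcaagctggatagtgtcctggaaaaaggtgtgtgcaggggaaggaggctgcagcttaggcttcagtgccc
Phf19, chr2:34913927-34914226, minus strand: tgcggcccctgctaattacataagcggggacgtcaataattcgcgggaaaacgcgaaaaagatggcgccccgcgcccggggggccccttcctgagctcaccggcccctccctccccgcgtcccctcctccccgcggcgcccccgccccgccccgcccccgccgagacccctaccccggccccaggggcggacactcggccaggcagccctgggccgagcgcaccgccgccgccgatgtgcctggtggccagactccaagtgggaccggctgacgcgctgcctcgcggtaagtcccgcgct
Traf1, chr2:34961723-34962022, minus strand: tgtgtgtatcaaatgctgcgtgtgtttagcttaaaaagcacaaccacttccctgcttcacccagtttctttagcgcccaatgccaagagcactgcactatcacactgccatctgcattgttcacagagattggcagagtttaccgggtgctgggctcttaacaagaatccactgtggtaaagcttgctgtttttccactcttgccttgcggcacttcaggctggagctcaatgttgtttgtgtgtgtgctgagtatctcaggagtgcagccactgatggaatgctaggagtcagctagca
Mycn, chr12:12941787-12942086, minus strand: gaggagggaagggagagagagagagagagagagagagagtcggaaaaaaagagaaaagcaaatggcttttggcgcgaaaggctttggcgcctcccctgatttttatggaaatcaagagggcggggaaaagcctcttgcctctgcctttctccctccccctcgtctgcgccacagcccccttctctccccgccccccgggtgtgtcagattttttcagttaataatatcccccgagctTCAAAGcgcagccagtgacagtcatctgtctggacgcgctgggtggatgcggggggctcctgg
Syt9, chr7:107370540-107370839, plus strand: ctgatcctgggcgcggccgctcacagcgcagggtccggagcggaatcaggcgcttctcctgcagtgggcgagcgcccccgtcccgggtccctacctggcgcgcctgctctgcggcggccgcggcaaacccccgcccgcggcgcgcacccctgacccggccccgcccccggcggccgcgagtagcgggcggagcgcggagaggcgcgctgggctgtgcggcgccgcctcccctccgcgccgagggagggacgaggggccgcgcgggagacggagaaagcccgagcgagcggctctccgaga

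Among these only the promoter of *Mycn* holds the core, once, starting 13 bases before the start site. RefSeq promoters were matched for 31 of the 44 genes (46 promoters), and 6 promoters (13.0%), of *Col13a1*, *Kif14*, *Mycn*, *Oip5*, *Rbm47* and *Spock2*, hold it at least once, against 16.02% of all 32544 distinct promoters of the same length. A match is a description of these letters in this window and says nothing of a site at a distance.

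The chromosome 2 genes all peaked in low CHIR, as the rule requires of every member. *Cutal* was at 967, 1017 and 807 normalized counts in no CHIR, 1992, 2787 and 2132 in low CHIR and 182, 211 and 101 in high CHIR. *Traf1* was at 32.1, 67.3 and 69.3, then 112, 206 and 131, then 56.0, 30.7 and 35.5, and *Phf19* is given above. In all 3, low CHIR replicate 2 was the highest library, as it was in members elsewhere in the genome, such as *Fgf9* and *Enc1*. The span and 250 kb to either side held 11 genes whose mean reached 50. Of these, 6 had every low CHIR library above the rest: these 3, *Psmd5*, *Fbxw2* and *Cntrl*. *Psmd5*, a proteasome assembly factor whose gene at chr2:34849734-34874968 on the minus strand overlaps the start of *Cutal*, was at 4669, 4310 and 3649, then 5765, 6666 and 5924, then 2556, 2323 and 2078. The library preparation did not record strand, so reads in the shared stretch cannot be told apart. Its ratio of low to high CHIR was 2.64 and that of *Cntrl* 2.65, against 14.0 for *Cutal*. *Cntrl* lay 148 kb from the 3. Of the other genes, *Fbxw2* (48.1 kb away) was at 1.15, *Rabepk* (74.5 kb) at 1.24, *Hspa5* (96.8 kb) at 0.703 and *Gapvd1* (119 kb) at 1.09. Farthest away were *Rab14* (218 kb) at 1.37 and the pseudogene *Gm13414* (224 kb) at 0.730. Whether the ratio goes with distance was not tested.

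**Figure D3:**
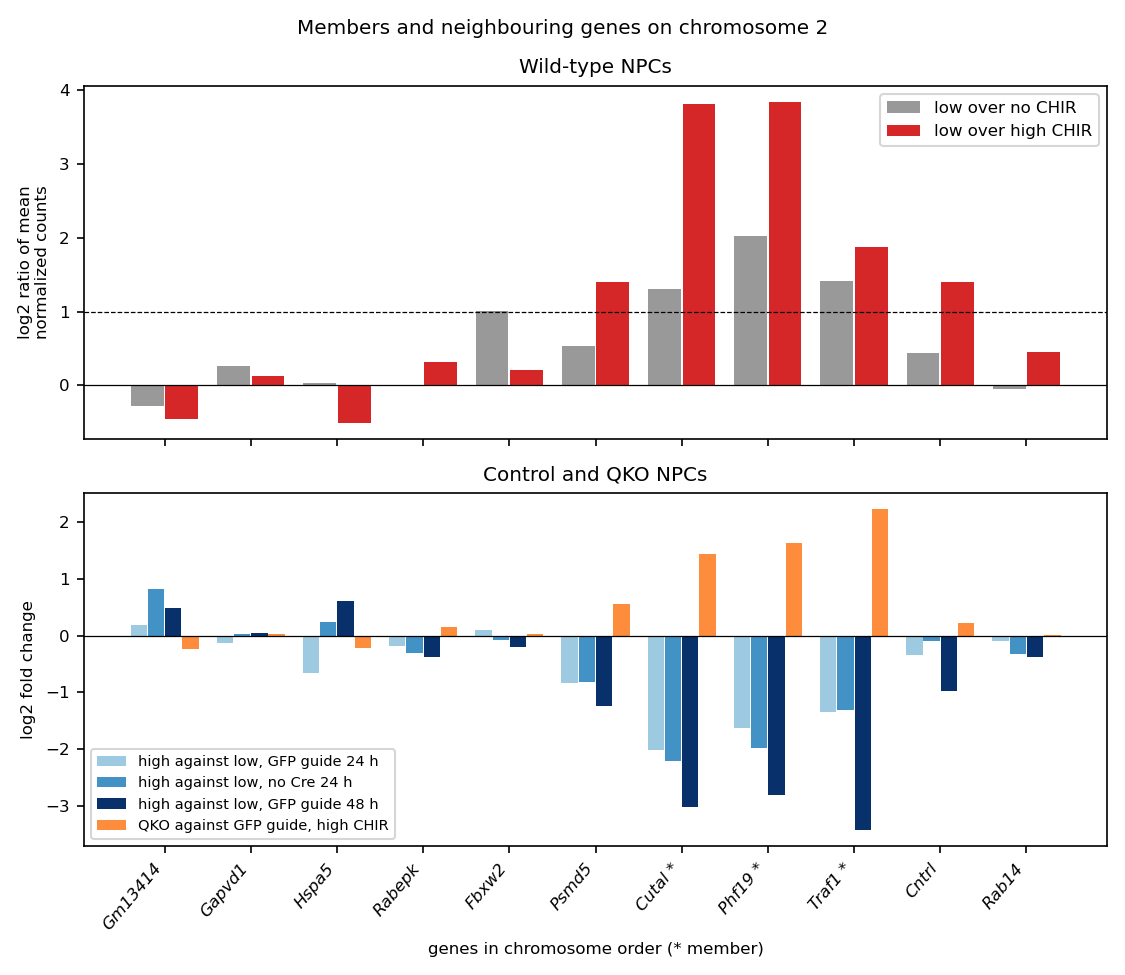
Genes with a wild-type mean of at least 50 normalized counts within 250 kb of the 3 neighbors on chromosome 2, in genomic order; bars in the upper panel give the log2 ratio of the low CHIR mean to the no and to the high CHIR mean, and in the lower panel the log2 fold changes of 3 control sets and of QKO. In the upper panel *Cutal*, *Phf19* and *Traf1* stand above 1 on both ratios, *Psmd5* and *Cntrl* above 1 only against high CHIR (1.40 each), and *Fbxw2* only against no CHIR (1.01). In the lower panel *Cutal*, *Phf19* and *Traf1* have the lowest values in the 48 h controls (between -3.43 and -2.81).

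The step from low to high CHIR was examined again in 3 sets of control cultures, which share no library with each other or with the wild-type set. Tests are limma's moderated test on log2(normalized count + 1), with p adjusted by the Benjamini-Hochberg method over all genes tested. A gene is called when the adjusted p is under 0.05 and the log2 fold change at least 0.5 in size, and all fold changes below are on this log2 scale with their standard error. In the GFP guide controls with the 24 h knockout period, 4 of the 44 genes were called lower in high than in low CHIR and 4 higher, where 4.53% and 2.98% of all 16780 genes were. In the controls without Cre, 10 were lower and 3 higher, where 5.24% and 2.8% of all genes were, and in the GFP guide controls with the 48 h period 15 were lower and 3 higher, where 7.96% and 6.98% of 15878 genes were. The share of the 44 called lower was 9.09%, 22.7% and 34.1% in the 3 sets and the share called higher 9.09%, 6.82% and 6.82%. Each was above that of all genes but the last, which was close to it. In the 24 h GFP guide set there were 2 lower without low CHIR replicate 1 and 2 higher without high CHIR replicate 2, and without Cre there were 6 lower without high CHIR replicate 2. The median log2 fold change of the 44 was -0.25, -0.36 and -0.50, against 0.00 for all genes in each set. The fold change was below 0 in 56.8%, 63.6% and 84.1% of the 44, against 50.3%, 50.2% and 49.6% of all genes. In 24 genes the fold change was below 0 in all 3 sets, in 5 above 0 in all 3 (*Enc1*, *Epb41*, *Hs3st6*, *Sfrp2* and *Slc45a3*), and in 15 mixed. Pairwise over the 44 genes, which are not independent replicates, Pearson's r of the fold changes was 0.90, 0.73 and 0.83. The agreement between sets was not counted over all genes, so it is not shown to be particular to the 44. Of all 44, 22 were called in none of the sets.

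Among the 4 genes called lower in all 3 control sets were *Gfra2*, *Iigp1* and *Btbd11*. *Gfra2* was at 401 and 376 normalized counts in low and 57.7 and 80.4 in high CHIR with the GFP guide (24 h), at 524 and 523 against 70.0 and 109 without Cre, and at 229.9, 60.2 and 83.0 against 52.7, 22.2 and 15.9 with the GFP guide (48 h). The log2 fold changes were -2.49 ± 0.31 (adjusted p = 0.000213), -2.57 ± 0.31 (0.000134) and -1.94 ± 0.54 (0.0313). The groups did not overlap in any set, but the 48 h call was lost when any of 3 of the 6 libraries was dropped. *Iigp1* was at 397 and 436 against 84.7 and 14.4, at 294 and 667 against 1.84 and 22.8, and at 388, 365 and 385 against 21.4, 17.2 and 7.44 in the same order, with fold changes of -3.52 ± 0.85 (0.0221), -5.75 ± 0.85 (0.000691) and -4.65 ± 0.52 (0.000109). Its 48 h low CHIR libraries were close to each other, but its 24 h GFP guide call was lost when any of 3 of the 4 libraries was dropped. *Btbd11*, an ankyrin-repeat BTB-domain protein, was at 309 and 231 against 40.5 and 29.7, at 499.7 and 208 against 31.3 and 23.9, and at 355, 442 and 257 against 34.6, 51.6 and 29.8, with fold changes of -2.91 ± 0.51 (0.00296), -3.51 ± 0.51 (0.000643) and -3.15 ± 0.39 (0.000212).

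Others fell in 1 or 2 sets. *Chst9* had fold changes of -4.70 ± 1.28 without Cre (adjusted p = 0.0375) and -3.87 ± 0.76 with the GFP guide at 48 h (0.00453), where it was at 30.6, 23.7 and 69.2 in low and 7.42, 0 and 1.06 in high CHIR. Without Cre it was at 72.2 and 127 in low and 0.921 and 6.22 in high CHIR. That call was lost when any of the 4 libraries was dropped and under 1 of 7 settings that kept every library. *Iqgap2* was at -1.93 ± 0.28 (0.00066) without Cre and -1.59 ± 0.19 (0.000181) at 48 h. *Cutal*, *Traf1* and *Phf19* were called only in the 48 h set, where *Cutal* was at 1811, 2568 and 2835 in low and 194, 239 and 527 in high CHIR, a fold change of -3.02 ± 0.32 (6.99e-05). *Traf1* was there at -3.43 ± 0.49 (0.000576) and *Phf19* at -2.81 ± 0.56 (0.00496). Their neighbor *Psmd5* was lower in all 3 sets, at -0.84 (0.0299) with the GFP guide at 24 h, -0.81 (0.0313) without Cre and -1.25 (0.0005) at 48 h. *Sypl2* fell without Cre from 117 and 86.1 to 26.7 and 17.6 (-2.16 ± 0.43, 0.00641) and at 48 h from 78.3, 184 and 67.4 to 19.8, 22.2 and 13.8 (-2.38 ± 0.53, 0.0103). Its groups stayed apart in both. *Prr5* without Cre (-0.87 ± 0.23, 0.036) and *4930452B06Rik* at 48 h (-1.21 ± 0.35, 0.0363) fell in 1 set each, and their calls were lost when any of 3 of the 4 and any of 4 of the 6 libraries was dropped. Without high CHIR replicate 1, the library with blood markers, the 48 h set held 16 lower calls in place of 15, and without replicate 2 it held 10. With the replicate number as a block it held 18, where 11.6% of all genes were lower. In the 24 h sets the *Cutal* libraries differed widely, at 4507 and 3562 against 989 and 1003 with the GFP guide and at 4173 and 2155 against 1408 and 296 without Cre. Its groups did not overlap, but the fold changes of -2.01 and -2.21 had adjusted p of 0.178 and 0.126.

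In some genes the direction was the opposite of the wild-type one. *Slc45a3* was called higher in high CHIR in all 3 sets, with 400.4 and 285 normalized counts in low and 1769 and 1890.5 in high CHIR in the GFP guide controls (24 h), 225 and 154 against 1007 and 633 without Cre, and 229, 309.9 and 376 against 841, 864 and 1348 in the GFP guide controls (48 h). Its log2 fold changes were 2.43 ± 0.34 (adjusted p = 0.000558), 2.09 ± 0.34 (0.00159) and 1.73 ± 0.28 (0.00147). In wild-type NPCs it was highest in low CHIR by the choice itself, at 473 to 984 against 133 to 426. *Sfrp2* was also higher in all 3 (1.90 ± 0.37, 1.80 ± 0.37 and 2.52 ± 0.58, with adjusted p of 0.00591, 0.00746 and 0.0117). *Syt9* rose in both 24 h sets, by 1.92 ± 0.25 (0.000326) and 1.42 ± 0.25 (0.00289), from 128 and 147 to 481 and 567 and from 165 and 148 to 439 and 404. At 48 h it was at 770.5, 608 and 233 in low and 466, 439 and 349 in high CHIR, and the groups overlapped. *Dll1* was called higher in the 48 h set alone (3.23 ± 0.65, 0.00554), from 6.12, 15.8 and 19.02 to 48.6, 205 and 190.3. *Epb41l4b*, with the third highest wild-type ratio, was called higher in the 24 h GFP guide controls alone (2.22, 0.00605), from 36.8 and 51.9 to 193 and 222. That call was lost when either of 2 of the 4 libraries was dropped. Its groups overlapped without Cre (117 and 83.3 against 186 and 105) and at 48 h (110, 155 and 101 against 126, 94.1 and 96.8). *Fgf9* was not called in any set: it was at 2802 and 2391 against 7448 and 6899, at 4007 and 2188 against 8196 and 3181, and at 2111, 2824 and 2893 against 2327, 2408 and 2763. Its 4.24-fold wild-type fall at high CHIR thus did not recur in these controls. *Mycn* and *Elavl4* were also called in none of the 3 sets, with fold changes of mixed sign. In the same order *Mycn* was at 844 and 595 against 997 and 1341, 867 and 575 against 846 and 606, and 748, 690 and 571 against 656, 482 and 486. *Elavl4* was at 695 and 781 against 1101 and 1359, 707 and 582 against 945 and 584, and 1191, 944 and 911 against 546, 473 and 1003. The wild-type, conditional and Cas9 cultures differed in genotype, transfection and time in culture, which cannot be told apart from one another.

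**Figure D4:**
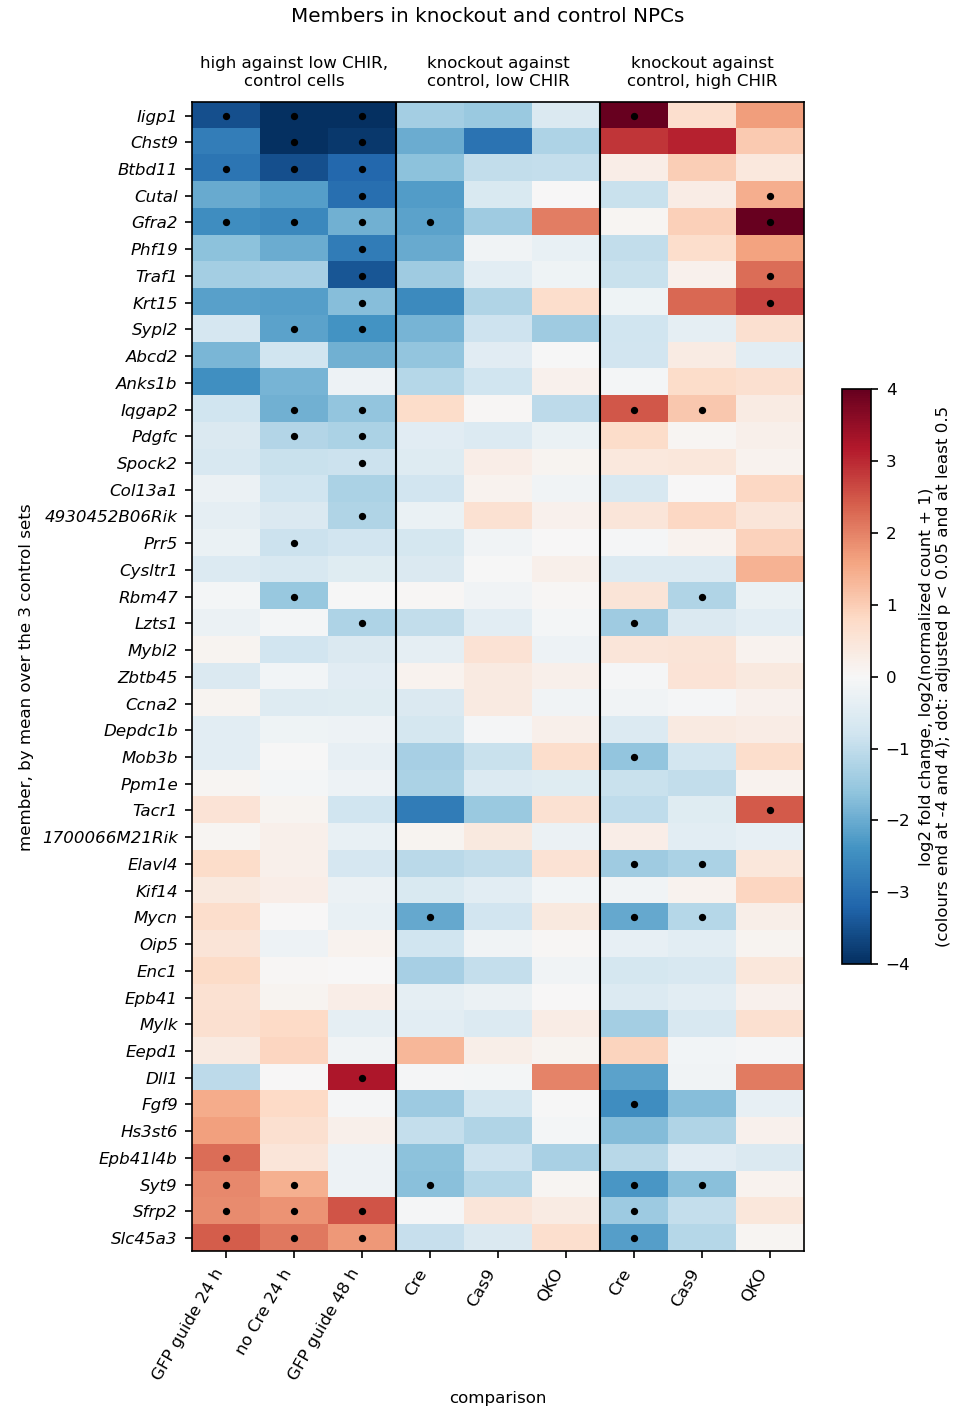
Log2 fold changes of 43 of the genes in 9 comparisons of the β-catenin and Tcf/Lef sets; blue is lower, red is higher, and a dot marks a gene called by limma (adjusted p under 0.05 and at least 0.5 in size). The CHIR response columns hold both called falls (*Btbd11*, *Gfra2*, *Iigp1*) and called rises (*Slc45a3*, *Sfrp2*), the Cre column in low CHIR is mostly blue, and the QKO column in high CHIR is mostly red.

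In low CHIR, where the 44 genes had been highest in wild-type NPCs, most had lower values after β-catenin was removed, but few passed the test. After Cre, 39 of the 44 had a fold change below 0, against 50.8% of all genes, and the median was -0.95 against -0.01. Called lower were 3 (*Gfra2*, *Mycn* and *Syt9*) and called higher 0 (also 0 by DESeq2 and edgeR), where 0.149% and 0.179% of all genes were; by unadjusted p under 0.05 it was 21 and 2 of the 44, against 3.79% and 4.62% of all genes. With the *Ctnnb1* guide, 34 of the 44 were below 0, against 48.9% of all genes, with a median of -0.45 against 0.01. Called were 0 in either direction, where 0.0179% and 0.0358% of all genes were called lower and higher. By unadjusted p it was 9 lower and 0 higher, where 1.37% and 1.55% of all genes were. DESeq2 called 3 lower and edgeR 0, where 0.0924% and 0.0119% of all genes were. The Cre and Cas9 experiments share no library, and 33 of the 44 were below 0 in both, with 4 above 0 in both, 7 opposite and Pearson's r of 0.70 over the genes. This agreement was not counted over all genes. The 3 calls after Cre rest on few libraries, and each was lost when at least 1 single library was left out. DESeq2 called 11 lower, where 0.868% of all genes were.

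*Gfra2* was at 524 and 523 normalized counts in the controls and 138 and 99.1 after Cre in low CHIR, a fold change of -2.15 ± 0.31 (adjusted p = 0.00728). With guides it was at 401 and 376 in controls and 177 and 115 with the *Ctnnb1* guide, -1.44 ± 0.31 (0.362). *Mycn* was at 867 and 575 against 199 and 145 after Cre, -2.05 ± 0.30 (0.00741), and at 844 and 595 against 535 and 319 with guides, -0.78 ± 0.30 (1). None of these groups overlapped, although only the Cre values passed the test, and the difference between the approaches was not tested. *Syt9* was at 165 and 148 against 49.7 and 47.6 after Cre, -1.67 ± 0.25 (0.0103), and at 128 and 147 against 66.7 and 57.9 with guides, -1.13 ± 0.25 (0.413). *Elavl4* had fold changes of -1.09 ± 0.23 (0.0701) and -0.99 ± 0.23 (0.462), from 707 and 582 to 288 and 314 and from 695 and 781 to 341 and 404. *Tacr1* was at 71.1 and 44.9 in controls and at 8.28 and 6.44 after Cre, -2.79 ± 0.57 (0.0624). All 8 signal genes and all 5 membrane and vesicle genes had values below 0 after Cre, with group medians of -0.99 and -1.57. Of all 44 genes 39 did, and of the 5 transcription and RNA genes 3, the highest of these 5 being at 0.125. The groups were made after the values were seen. The 5 cell division genes were also below 0, with a median of -0.62, but ranged from -0.41 to 0.58 with the *Ctnnb1* guide, and the lowest adjusted p among them after Cre was 0.212. These control libraries in low CHIR also served as the low CHIR side of the control responses above.

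In high CHIR the genes divided after β-catenin removal. After Cre 8 were lower and 2 higher, where 2.75% and 5.9% of all genes were, and with the *Ctnnb1* guide 4 were lower and 2 higher, where 1.64% and 3.44% were. *Mycn*, *Syt9* and *Elavl4* were lower and *Iqgap2* higher in both experiments, which share no library. *Mycn* was at 846 and 606 normalized counts in controls and at 172 in each library after Cre, a fold change of -2.05 ± 0.30 (adjusted p = 0.000636), and at 997 and 1341 against 517 and 525 with the *Ctnnb1* guide, -1.15 ± 0.30 (0.0417). *Syt9* was at 439 and 404 against 68.7 and 102, -2.32 ± 0.25 (6.57e-05), and at 481 and 567 against 176 and 153, -1.66 ± 0.25 (0.00175). *Elavl4* was at 945 and 584 against 295 and 259, -1.42 ± 0.23 (0.00125), and at 1101 and 1359 against 524 and 484, -1.28 ± 0.23 (0.00488). In these 3 genes every library after β-catenin removal lay below every control of its own experiment. *Iqgap2* went the other way, from 58.0 and 47.7 to 233 and 389, 2.49 ± 0.28 (8.01e-05), and from 126 and 98.6 to 239 and 235, 1.08 ± 0.28 (0.0428).

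The remaining calls in high CHIR were in 1 experiment each. After Cre, *Fgf9* was at 1462 and 572 normalized counts against 8196 and 3181 in controls, -2.48 ± 0.51 (adjusted p = 0.00772), and with the *Ctnnb1* guide at 2715 and 1811 against 7448 and 6899, -1.69 ± 0.51 (0.0793). *Slc45a3*, called after Cre, was at 254 and 119 against 1007 and 633, -2.19 ± 0.34 (0.00112), and at 895 and 781 against 1769 and 1890.5 with guides, -1.13 ± 0.34 (0.0789). In both the groups stayed apart in each experiment. *Sfrp2* (-1.44), *Lzts1* (-1.42) and *Mob3b* (-1.58) were also lower after Cre, as was *Rbm47* (-1.20 ± 0.28, 0.0283) with the guide. *Iigp1* rose after Cre from 1.84 and 22.8 to 185 and 114, 4.15 ± 0.85 (0.00704). Beside this, the 32 interferon-response genes listed summed to 4927 to 8249 in the 4 Cre libraries and to 1113 to 1808 in their 4 controls, and the part of that in the rise of *Iigp1* was not tested. In low CHIR alone the list summed to 4927 and 6708 after Cre against 1361 and 1808, and *Iigp1* was at 203 and 144 against 294 and 667. The Cas9 call counts rest on few libraries: fewer genes were called when any single library was left out. DESeq2 called 5 higher, where 5.52% of all genes were. After Cre there were 5 lower without control replicate 1, 4 lower without Cre replicate 2, and 1 higher without Cre replicate 1.

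For 2 genes the CHIR response itself differed with β-catenin. *Gfra2* fell from low to high CHIR in controls but not after removal, so that the response after Cre minus that of its controls was 2.24 ± 0.44 (adjusted p = 0.0246) and that after the guide minus that of its controls 2.39 ± 0.44 (0.0256). After Cre it was at 138 and 99.1 in low and 82.8 and 103 in high CHIR, and with the guide at 177 and 115 in low and 121 and 145 in high CHIR, so low and high overlapped in both. *Iigp1* differed after Cre (5.52 ± 1.20, 0.0484). Called as different were 2 of the 44 after Cre, both higher, where 0.745% of all genes were higher and 0.25% lower, and 1 with the guide, where 0.471% were higher and 0.0477% lower. These calls were lost when most single libraries were left out, the counts then lying between 0 and 2 after Cre and between 0 and 1 with the guide.

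With the quadruple knockout of Tcf/Lef factors few differences passed the test in low CHIR, and in high CHIR the called differences were all higher values. In low CHIR 24 had a fold change above 0 and 20 below, with a median of 0.03 against 0.04 for all genes. Called were 0, where 0% of all genes were lower and 0.0063% higher. By unadjusted p it was 3 lower and 3 higher, where 1.39% and 2.2% of all genes were. DESeq2 called 1 lower and edgeR 0, where 0.00746% and 0% of all genes were. In this set libraries with the same replicate number deviated together. With the replicate number as a block 2 were called higher, *Dll1* (2.28, adjusted p = 0.0178) and *Gfra2* (1.85, 0.0472), where 0.0945% of all genes were. In high CHIR 37 of the 44 were above 0, against 50.1% of all genes, with a median of 0.44 against 0.00, and 6 were called higher and 0 lower, where 2.05% and 0.491% of all genes were. By unadjusted p it was 13 higher and 0 lower, where 6.84% and 4.31% of all genes were. With the block 11 were higher, where 5.3% of all genes were. DESeq2 called 11 higher and edgeR 4 (0 lower by either), where 3.54% and 1.86% of all genes were higher. Without control replicate 2 or QKO replicate 1 in high CHIR there were 3, and without control replicate 1, the library with blood markers, there were 4. The calls of *Cutal* and *Traf1* were each lost when any of 5 of the 6 high CHIR libraries was dropped, with adjusted p up to 0.167 and 0.154, and with edgeR on all libraries (0.058 and 0.0694), and that of *Krt15* was lost without either of 2 (up to 0.0715). Guide RNAs make small insertions and deletions that need not lower a transcript, so mRNA does not show whether a protein was lost, and these data hold no protein values. By staining, the study reports that individual guides removed most of Tcf7l1, Tcf7l2 and Lef1 protein and less of Tcf7. The transcript of *Tcf7* was at -1.23 in low (adjusted p = 0.904) and -1.64 in high CHIR (0.0175), that of *Lef1* at 0.13 (0.981) and -2.12 (0.131), that of *Tcf7l1* at -0.88 (0.82) and 0.15 (0.778), and that of *Tcf7l2* at -0.15 (0.93) and -0.35 (0.513).

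Of the genes raised by QKO in high CHIR, *Gfra2* rose from 52.7, 22.2 and 15.9 normalized counts to 690.1, 464 and 376, 4.16 ± 0.54 (adjusted p = 0.00224). In low CHIR it was at 685 and 276 with QKO and 229.9, 60.2 and 83.0 in controls. Every QKO library in either dose was thus above every control library. Of the 44, 1 was called for a higher response to CHIR with QKO than in controls, where 0.107% of all genes were higher and 0.0189% lower. With the block *Iqgap2*, *Gfra2* and *Phf19* were called in addition, where 0.617% of all genes were higher. Without QKO replicate 1 in low CHIR there were 0 such calls, and without control replicate 3 in high CHIR there were 3. *Tacr1* rose from 98.9, 197 and 284 to 929, 1098 and 913 (2.46 ± 0.31, 0.00216) and *Krt15*, a keratin, from 47.0, 11.1 and 29.8 to 314, 132 and 118 (2.71 ± 0.51, 0.0151). In *Gfra2*, *Tacr1* and *Krt15* the high CHIR groups did not overlap. On chromosome 2, *Cutal* rose from 194, 239 and 527 to 766, 700.1 and 919.8 (1.44 ± 0.32, 0.0357) and *Traf1* from 31.3, 23.3 and 120.1 to 168, 185 and 309 (2.23 ± 0.49, 0.0347). *Phf19* was at 51.1, 27.3 and 129 in controls and 159.9, 124 and 278 with QKO, 1.62 (0.184), and was called with the block (0.00126), while their neighbor *Psmd5* was at 0.55 (0.142). The QKO high CHIR comparison and the 48 h control response share the high CHIR control libraries, so a low value there enters both. In the control response *Gfra2*, *Cutal* and *Traf1* had been at -1.94, -3.02 and -3.43.

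None of the 4 genes called in both β-catenin experiments in high CHIR was called with QKO. *Mycn* was at 641, 544 and 733 normalized counts with QKO against 656, 482 and 486 in controls, and *Syt9* was at 366, 583 and 444 against 466, 439 and 349. In both genes the groups overlapped, and the difference between the removals, done in separate cultures, was not tested. *Dll1* reached 218, 827 and 828 with QKO in high CHIR against 48.6, 205 and 190.3, and was called only with the block (2.09, adjusted p = 0.00061). *Kif14* (0.84, 0.00913), *Cysltr1* (1.39, 0.0127) and *Iigp1* (1.66, 0.0236) were also called only with the block. Apart from *Kif14* there, none of the 5 cell division genes was called in any of the 12 comparisons.

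**Figure D5:**
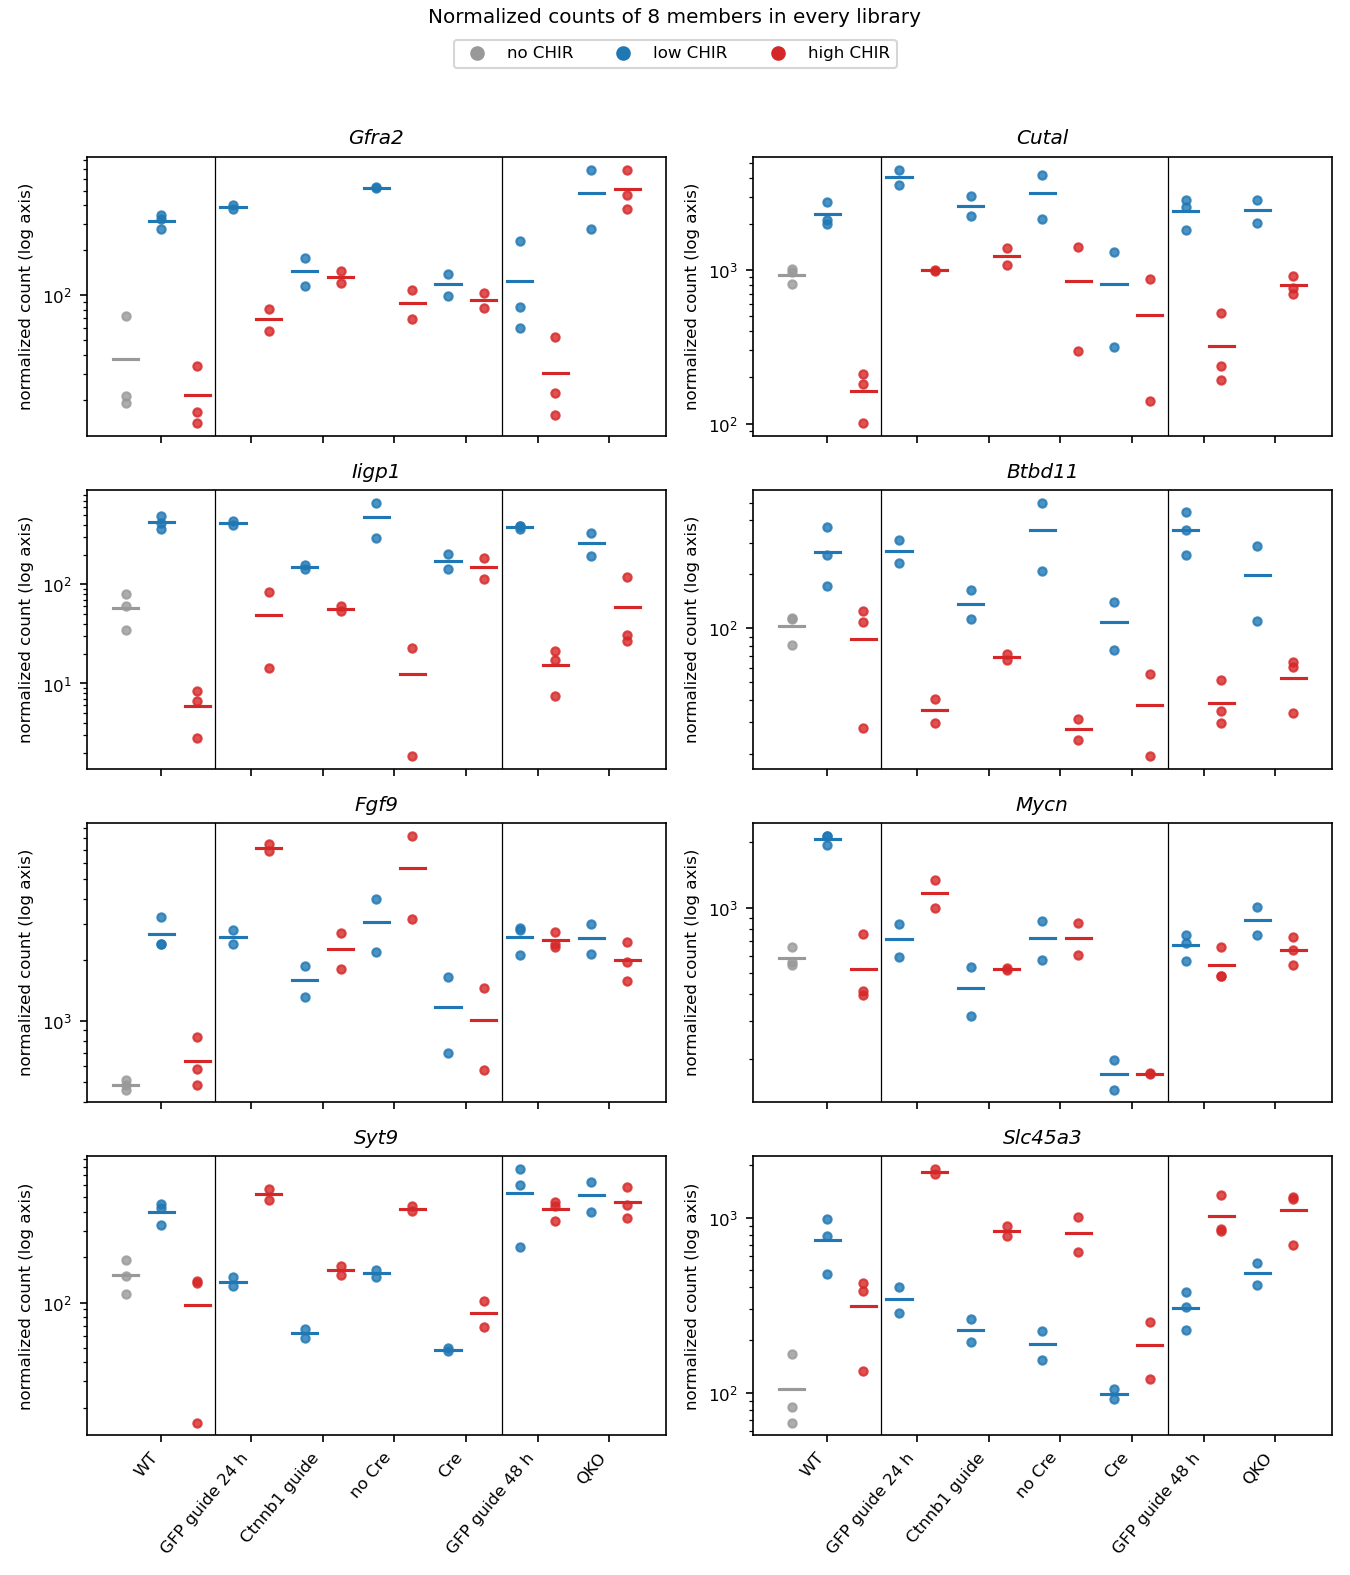
Normalized counts on a log axis for 8 of the genes in all 36 libraries, 1 point per library, grouped by culture and colored by CHIR dose, with a line at each group mean; vertical lines part the 3 tables, which were normalized separately. *Gfra2* is at 275 to 344 in low and 14.0 to 33.6 in high CHIR in wild-type NPCs but between 376 and 690.1 with QKO in high CHIR, and *Mycn* falls to between 145 and 199 in all 4 Cre libraries.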

How the data were processed

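RNA-seq of 36 libraries was analysed in 3 tables. Per the labels and the study's methods, the authors made SMARTer cDNA, which does not mark strand, sequenced paired-end reads of 150 bases, aligned them with STAR to the mouse and human genomes (GRCm38 and GRCh38) and counted reads per Ensembl gene with featureCounts. The signal deposited by the authors in each table is a normalized count, the reads divided by a DESeq2 size factor per library. Of these values, 100% were whole multiples of 1 read (within 0.05) in every library, which gave the depth and the reads for count tests. Libraries held 13651129 to 76071568 (wild-type), 14537850 to 27838106 (β-catenin set) and 13089780 to 20152719 reads (Tcf/Lef set). The tables were normalized separately, so levels are compared within a table. The authors' own comparison tables (fold changes and p-values) were not used.

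The 44 genes were found by the stated rule. In R 4.3.3, limma 3.58.1 was run on all libraries of a table together, after adding 1 to each value and taking log2, with a variance trend, on genes whose table mean reached 10. P was adjusted over all of them by the Benjamini-Hochberg method. This scale understates changes of low genes. Labels give separate samples but not their source for every group, so p-values measure the spread between samples. edgeR 4.0.16 and DESeq2 1.42.0 on the recovered reads, other pseudocounts (0.5 and 5), no filter, TMM, the replicate number as a block and leaving out each library were alternatives. The steps were tested on simulated data. In the Tcf/Lef set deviations of same-numbered libraries correlated (0.369, 0.249 and 0.365 for QKO and controls in high CHIR, 0.531, 0.341 and 0.63 for controls in low and high CHIR), so the block is given there beside the results it changes. The headers number the replicates but do not say what same-numbered libraries share. S phase and G2-M lists are those of Seurat 5.3.0, and places are from GENCODE vM21. Genes named were those with the 12 highest ratios, the 10 highest levels, the calls and lists, and the edge of the rule. Other members, the genes near those on chromosome 2 and the role groups were chosen after their values were seen. Of the 44 genes, 1 is counted but not reported singly here. The members and lists were chosen with earlier results of these data known.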

Additional observations from a re-analysis of the deposited data

Results flagged for a closer look

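The CHIR response (high minus low CHIR, log2 scale, limma) differed between knockout and control for Gfra2 and Iigp1 in 3 tests of the difference itself. For Gfra2 the response after Cre minus that of the controls without Cre was 2.24 ± 0.44 (adjusted p = 0.0246), and the response with the Ctnnb1 guide minus that with the GFP guide was 2.39 ± 0.44 (0.0256). These experiments share no library. For Iigp1 the difference after Cre was 5.52 ± 1.20 (0.0484), and with a pseudocount of 0.5 the adjusted p was 0.0548. No explanation was tested for any of these.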

How the results depend on the processing

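Under 7 settings that kept every library, 62 of the 68 calls of single genes stayed past the threshold and 6 did not, 36 were lost when at least 1 single library was left out, and 0 reversed. Leaving a library out of a group of 2 leaves 1, assumed to vary like the other groups. Counts of the 44 genes moved as follows, the cause not being tested. In every comparison named for DESeq2 or the block, the share of all genes called in that direction rose as well. With DESeq2, lower calls went from 3 to 11 (Cre, low CHIR), 0 to 3 (Cas9, low CHIR) and 0 to 1 (QKO, low CHIR), and higher calls from 2 to 5 (Cas9, high CHIR), 6 to 11 (QKO, high CHIR) and 1 to 3 (QKO response). For the lower calls the shares of all genes went from 0.149% to 0.868%, 0.0179% to 0.0924% and 0% to 0.00746%. For the higher calls they went from 3.44% to 5.52%, 2.05% to 3.54% and 0.107% to 0.681%. Lower calls also went from 4 to 6 (24 h GFP guide controls), 10 to 12 (no Cre), 15 to 17 (48 h GFP guide controls), 8 to 9 (Cre, high CHIR) and 4 to 6 (Cas9, high CHIR). Higher calls also went from 4 to 6 (24 h GFP guide controls) and 2 to 3 (Cre response). With the replicate block, lower calls went from 4 to 7 (24 h GFP guide controls) and 3 to 10 (Cre, low CHIR), and higher calls from 2 to 4 (Cre, high CHIR), 2 to 4 (Cre response), 0 to 2 (QKO, low CHIR), 6 to 11 (QKO, high CHIR) and 1 to 4 (QKO response). For the lower calls the shares of all genes went from 4.53% to 6.32% and 0.149% to 0.453%. For the higher calls they went from 5.9% to 7.91%, 0.745% to 1.3%, 0.0063% to 0.0945%, 2.05% to 5.3% and 0.107% to 0.617%. Lower calls also went from 15 to 18 (48 h GFP guide controls, 7.96% to 11.6% of all genes), 10 to 12 (no Cre), 8 to 9 (Cre, high CHIR) and 4 to 6 (Cas9, high CHIR). Higher calls also went from 4 to 5 (24 h GFP guide controls). In the β-catenin set the numbers mark only 2 pairs per comparison (correlations 0.196 to 0.491), which the labels do not tie to a shared source. The block there added Fgf9, higher in the 24 h GFP guide controls (1.47, adjusted p = 0.00425), and Cutal and Phf19, lower in both 24 h control sets, and it ended no call in either set. With no filter the higher calls for Cas9 in high CHIR went from 2 to 1, and with a pseudocount of 0.5 those of the Cre response from 2 to 1. Leaving out 1 library gave 2 to 4 lower and 2 to 4 higher (24 h GFP guide), 6 to 11 lower (no Cre), 0 to 6 lower (Cre, low CHIR), 4 to 8 lower and 1 to 2 higher (Cre, high CHIR), 1 to 2 lower and 0 to 0 higher (Cas9, high CHIR), 0 to 2 (Cre response), 0 to 1 (Cas9 response), 3 to 8 (QKO, high CHIR) and 0 to 3 (QKO response). The rule gave 253 genes at a ratio of 1.5, 15 at 3, 64 at a mean of 20, 40 at 100, 43 with TMM and 40 to 63 without single libraries. Depth was at least 13089780 reads, 1 read being worth 0.255 to 1.46 normalized counts, and values of a few counts carry counting error beside the spread between 2 or 3 libraries.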
